A study of Mus musculus with 36 samples.

Results

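Gene expression was compared between dorsal root ganglia (DRG, the ganglia that hold the cell bodies of sensory neurons) of wild-type mice after spared nerve injury (SNI) and of naive wild-type mice. These were 9 of the 36 libraries of the series, chosen by their labels: 4 injured libraries (E1, E3, F1 and F3) and 5 naive libraries (A1, A3, B1, B3 and C1). The other libraries came from dorsal spinal cord and from knockout mice, and the series title calls the mice female. The wild-type mice carried no transgene or agent in the labels, and strain, age, the time after injury, pooling and the ganglia taken are not stated in the labels. The naive mice are labelled as not treated, and no group is labelled as sham-operated. Effects of the surgery itself and of the nerve injury therefore cannot be told apart, and "after injury" below covers both. All 9 libraries held Xist, the RNA that silences an X chromosome, at 634.1 to 984.9 CPM (reads scaled by TMM library size).

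In spared nerve injury the tibial and common peroneal branches of the sciatic nerve are cut and the sural branch is left intact. Cut sensory neurons are known to switch on a regeneration program led by the transcription factors ATF3, c-Jun and SOX11, to lower many channels and receptors of their resting state, and to release CSF1, on which macrophages depend. ATF3 and c-Jun act as dimers at AP-1 sites. ATF4, the effector of the integrated stress response, acts with C/EBP proteins at composite C/EBP-ATF elements (CARE) of amino acid and redox genes.

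Promoter sequences are shown for 6 genes that rose, picked by their matches, and a role of either program was not tested. Sprr1a and Nts are large rises that hold an AP-1 match. Atf3, Chac1 and Asns rose and hold a CARE match, and Gal is a large rise with no match. Each sequence is the stretch of 250 bases before the annotated start site, 5′ to 3′ on the strand of the gene. The sequences are from RefSeq on GRCm38.p6, the build of the files. They lie at chr3:92485882-92486131 (minus strand) for Sprr1a, chr10:102490419-102490668 (minus) for Nts, chr1:191183334-191183583 (minus) for Atf3, chr2:119350992-119351241 (plus) for Chac1, chr6:7693210-7693459 (minus) for Asns and chr19:3414545-3414794 (minus) for Gal. Capitals mark matches to AP-1 (TGANTCA) or CARE (TGATGNAA), searched on both strands.
Sprr1a: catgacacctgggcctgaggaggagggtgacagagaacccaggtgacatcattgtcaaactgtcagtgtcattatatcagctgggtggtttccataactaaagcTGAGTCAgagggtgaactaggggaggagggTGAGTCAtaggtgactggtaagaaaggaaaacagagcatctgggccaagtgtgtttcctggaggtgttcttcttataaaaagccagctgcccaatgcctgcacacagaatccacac
Nts: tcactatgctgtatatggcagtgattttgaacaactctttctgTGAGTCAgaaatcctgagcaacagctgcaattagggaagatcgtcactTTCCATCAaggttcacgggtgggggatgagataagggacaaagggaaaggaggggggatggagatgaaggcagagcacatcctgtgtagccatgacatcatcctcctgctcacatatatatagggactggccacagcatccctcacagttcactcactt
Atf3: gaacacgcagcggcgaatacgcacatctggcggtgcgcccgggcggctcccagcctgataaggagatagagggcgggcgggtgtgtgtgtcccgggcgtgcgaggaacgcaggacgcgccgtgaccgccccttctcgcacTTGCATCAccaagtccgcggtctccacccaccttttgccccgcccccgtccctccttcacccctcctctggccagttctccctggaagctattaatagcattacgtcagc
Chac1: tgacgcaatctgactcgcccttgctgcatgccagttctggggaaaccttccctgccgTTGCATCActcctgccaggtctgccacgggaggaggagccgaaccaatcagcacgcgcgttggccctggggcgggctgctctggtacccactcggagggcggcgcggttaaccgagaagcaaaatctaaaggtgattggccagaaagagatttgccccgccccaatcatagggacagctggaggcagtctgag
Asns: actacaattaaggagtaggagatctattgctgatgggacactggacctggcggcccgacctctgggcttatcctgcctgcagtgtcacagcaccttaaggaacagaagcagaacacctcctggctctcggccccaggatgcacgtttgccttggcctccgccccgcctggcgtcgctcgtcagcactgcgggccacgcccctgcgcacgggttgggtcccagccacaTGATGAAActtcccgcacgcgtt
Gal: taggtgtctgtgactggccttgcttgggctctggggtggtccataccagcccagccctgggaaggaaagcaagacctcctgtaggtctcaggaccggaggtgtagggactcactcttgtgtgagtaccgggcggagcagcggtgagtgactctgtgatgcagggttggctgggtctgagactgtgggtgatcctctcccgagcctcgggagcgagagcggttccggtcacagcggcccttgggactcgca

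The first base of the AP-1 matches lay at -146 and -116 from the start site in Sprr1a and at -207 in Nts. CARE matches began at -159 in Nts, -110 in Atf3, -193 in Chac1 and -23 in Asns. AP-1 letters were present in 6.87% of 27025 promoter windows of the same length and in 4.85% of the 13187 windows of genes tested here. Of genes called higher after injury 133 of 1765 with a window held them (7.54%), and of genes called lower 64 of 1770 (3.62%). The 20 rises selected below are the largest without overlap and above a floor on mean level. Of these, 18 had a window and 4 of those held AP-1 letters (Anxa10, Lipn, Nts and Sprr1a). CARE letters were in 3.53% of all windows, 2.18% of tested genes, 3.0% of genes called higher and 2.43% of genes called lower. Of 17 stress genes called higher with a window, Asns, Chac1 and Herpud1 held them. Of 15 regeneration transcription factors called higher with a window, 1 held AP-1 letters (Ddit3) and 1 held CARE letters (Atf3). Among 6 neuropeptide genes called higher with a window, 1 held AP-1 letters and 1 held CARE letters (Nts for both). Among 21 such axon growth genes, 3 held AP-1 letters and 1 held CARE letters. A full cyclic AMP element (TGACGTCA) was in 1.62% of all windows, 2.46% of tested genes, 2.15% of genes called higher and 3.16% of genes called lower. These shares describe letters in a window, and binding was not measured.

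Depth was 22.69 to 27.27 M estimated reads in naive and 22.34 to 24.56 M in injured libraries. Within both groups the libraries fell into the same kind of sets. Mitochondrial transcripts took 5.78% and 6.12% of reads in naive A3 and C1 and 5.29% and 5.37% in injured E3 and F3, against 3.65% to 4.98% in A1, B1, B3, E1 and F1. The first principal component (50.6% of variance) separated injured from naive libraries, and the second (32.5%) separated these sets, with A1 between them. Between injured libraries the chi-square per gene averaged 7.24 for E1 with F1 and 10.62 for E3 with F3, but 41.67 to 53.04 for pairs across the sets. Summed potassium channel levels were 3358 and 3435 CPM in E1 and F1 and 2374 and 2630 CPM in E3 and F3 (naive 3508 to 4563 CPM). Summed macrophage levels ran the other way, 4628 and 5045 CPM in E1 and F1 and 6676 and 5900 CPM in E3 and F3 (naive 3952 to 4592 CPM). Naive C1 held the most blood transcripts, 3604 CPM against 463 to 1658 CPM elsewhere. What separates the sets was not tested.

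**Figure D1:**
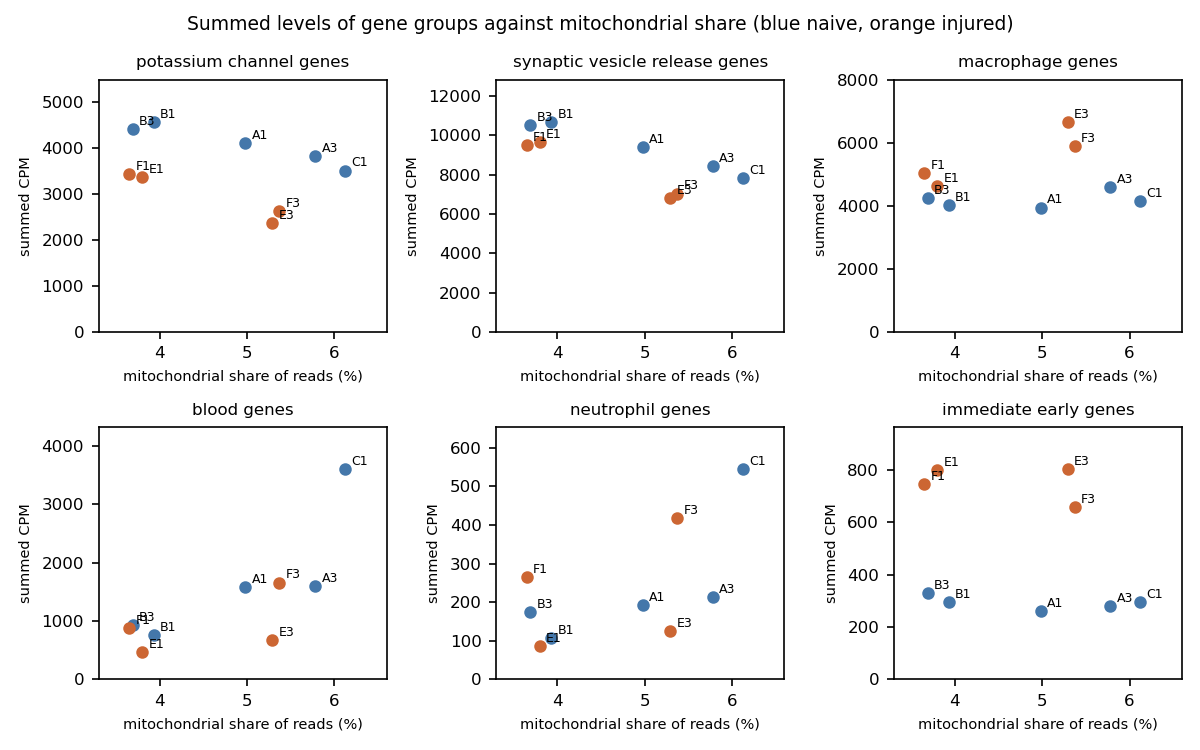
Summed CPM of 6 gene groups (vertical axes, from 0) against the mitochondrial share of reads in percent (horizontal axes), 1 point per wild-type DRG library, blue naive and orange injured. Libraries with a share above 5% held lower potassium channel sums within each group, and naive C1 stands apart in blood and neutrophil transcripts.

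Levels of 4864 of 19496 genes tested differed between injured and naive libraries (24.9%), 2465 higher (12.6%) and 2399 lower (12.3%) after injury. The threshold was an edgeR quasi-likelihood adjusted p under 0.05 over all genes, which is what "called", "rose" and "fell" mean below. Values after ± are standard errors for log2 fold changes (injured minus naive) and SD for CPM (n = 5 naive, n = 4 injured). With wild-type libraries alone in the fit, 3216 genes were called, and 3191 of them were called in the same direction in the fit of all DRG libraries. Without A1, B1, B3, E1 and F1, 3578 were called, 2961 of them also in the fit of all DRG libraries. Without A3, C1, E3 and F3, 4843 were called, 3812 of them also in that fit. The former setting kept only A3 and C1 of the naive and E3 and F3 of the injured wild-type libraries. A call lost without a library set can therefore also reflect fewer libraries. With the mitochondrial share as a covariate 7031 were called. The p-values measured the spread between these libraries, because the labels did not say that each came from a separate animal. In bulk tissue, fewer cells of a type and less RNA per cell cannot be told apart. Counts in the gene lists below are to be read against the 12.6% of all genes called higher and 12.3% called lower.

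Rises were larger than falls. The median called rise was 0.59 and the median called fall -0.42 on the log2 scale, with a median of -0.011 over all genes. More than 2-fold changes were called for 695 genes upward (3.56%) and 125 downward (0.641%), more than 4-fold for 239 and 11, and more than 16-fold for 98 and 3. Of those 98, 28 had no read in any naive library and 32 had 1 to 3, so that 95 remain past 16-fold with the former at their lower bound (3 counts over the naive group). Genes under 1 CPM in naive ganglia were called higher in 13.3% and lower in 2.51% of cases, and genes over 100 CPM in 10.7% and 23%. Genes under 1 CPM had little room to fall, and those without a naive read passed the filter on low counts only through other groups. Their shares are thus partly set by selection and are no result on the direction of change. The 695 genes together took 0.669% to 0.695% of reads in naive libraries and 2.05% to 2.34% in injured ones. Levels of 1816 genes (9.31%) were higher in every injured than in every naive library, and those of 1700 (8.72%) were lower.

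**Figure D2:**
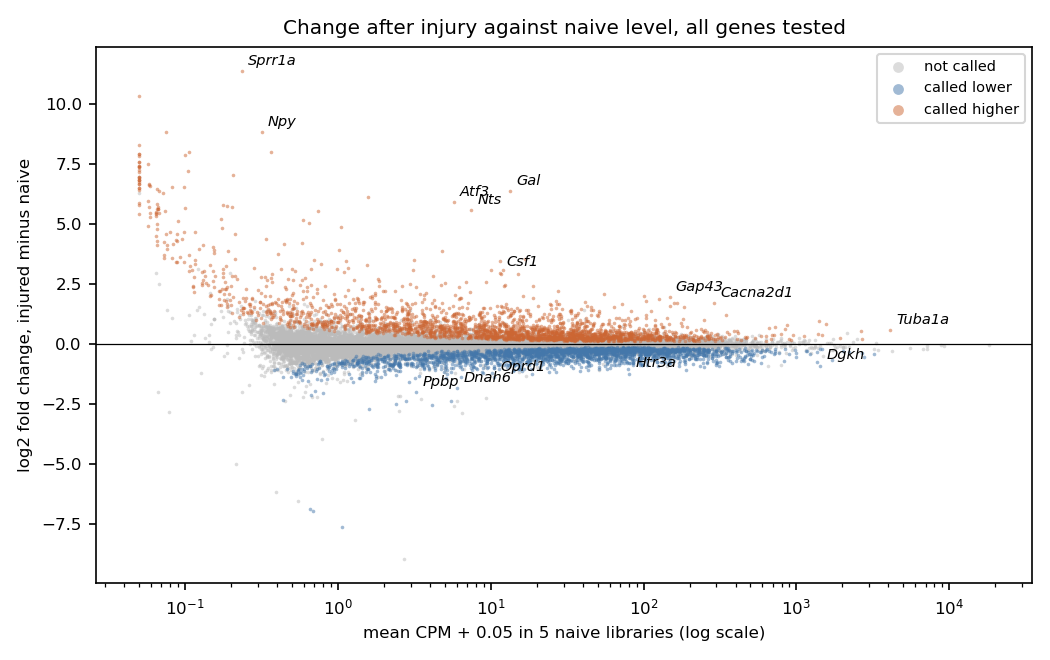
Log2 fold change after injury (vertical axis) against the mean CPM of the 5 naive libraries plus 0.05 (horizontal log axis), 1 point per gene tested, orange called higher, blue called lower and grey not called. Rises reach 11.36 (Sprr1a) at low naive levels, while falls past -2 were called for 11 genes.

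The 20 largest rises were taken without overlap and above a floor on mean level. Genes under the floor, Crh and Grp among them, had larger fitted rises than some of these 20. Within the set, some genes went from near silence to high levels in all 4 injured libraries. Sprr1a, a cornified envelope protein that promotes axon growth, stood at 0.0861, 0.208, 0.256, 0.0883 and 0.285 CPM in naive libraries and at 708.1 (E1), 448 (E3), 506.1 (F1) and 396.2 (F3) CPM in injured ones. Its lowest injured value was 1390 times its highest naive value, and its coefficient of variation among injured libraries was 26.5%. Wfdc3, a whey acidic protein family member, stood at 0.548 to 0.971 CPM and then at 24.4, 49.2, 21.9 and 34 CPM (5.56 ± 0.25, adjusted p = 9.52e-12). Wfdc3 was thus higher in E3 and F3 than in E1 and F1, the opposite order to Sprr1a. Fgf3, a fibroblast growth factor, rose from 0.392 to 0.706 CPM to 20.7, 23.1, 17.9 and 16 CPM (5.16 ± 0.18, adjusted p = 1.47e-13). Slc6a4, the serotonin transporter, rose from 0.473 to 2.21 CPM to 25.4 to 36.7 CPM (4.90 ± 0.25). Igfn1 (5.06 ± 0.39), the lysosomal channel Mcoln2 (4.38 ± 0.21) and the desmosome gene Dsp (4.23 ± 0.32) rose likewise. A lack of overlap between the groups was a condition for entering the 20, so it is not a result for them. Anxa10 had 3 reads over the 5 naive libraries and 1274 over the 4 injured ones, and Lipn 6 and 1188, so no fold is given for them. Of these 20, Gm29374 and 4930438A08Rik have no gene symbol of known function and are passed over.

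**Figure D3:**
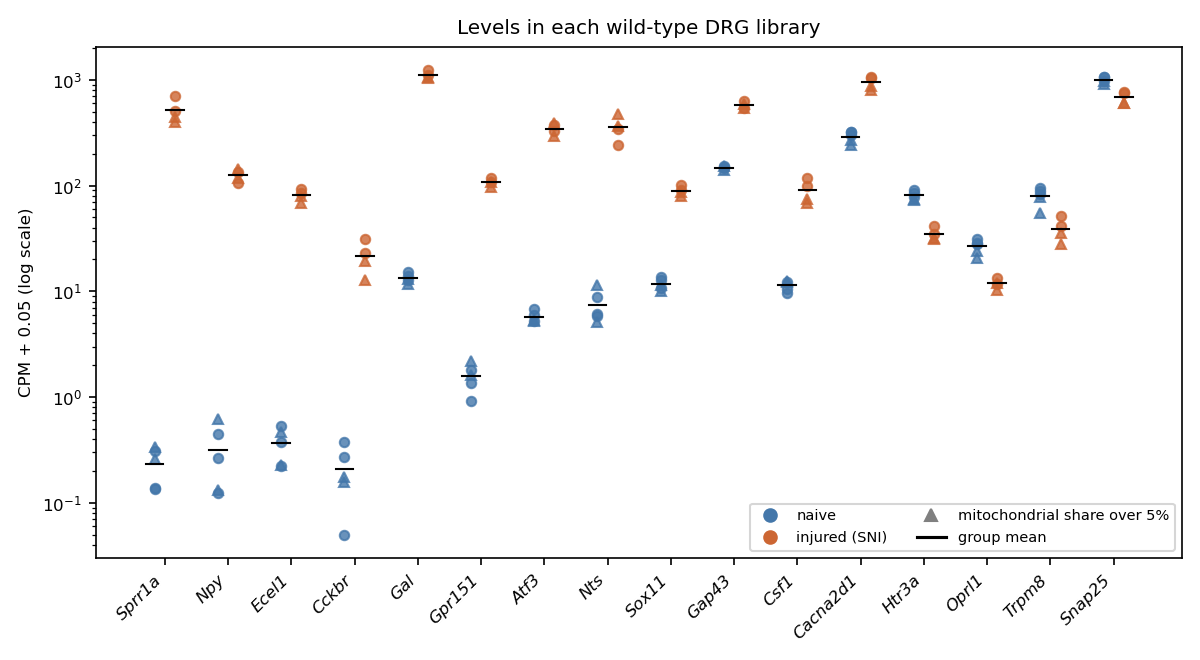
CPM plus 0.05 (vertical log axis) of 16 genes in each wild-type DRG library, blue naive and orange injured, with triangles for libraries whose mitochondrial share is over 5% and black lines for group means. The groups do not overlap for any gene shown, which was a condition of selection for those taken from the largest rises. The gap is widest for Sprr1a.

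Of 31 regeneration transcription factors tested, 19 were called higher (61.3%, against 12.6% of all genes) and 1 lower (12.3% of all genes), with a median of 0.40. This list and the others below were chosen with earlier results of these data known. Their shares therefore describe the members and test no group. Atf3, induced by axotomy, stood at 5.21, 5.24, 5.96, 6.8 and 5.31 CPM in naive and at 374.6, 388.5, 326.7 and 293.2 CPM in injured libraries. No injured library came near the naive range. Sox11, needed for regrowth of sensory axons, rose from 10 to 13.5 CPM to 101, 87.1, 89.8 and 79.5 CPM (2.94 ± 0.09, adjusted p = 1.81e-14). Jun rose from 27.1 to 41.2 CPM to 107.3, 86.4, 90.3 and 62.4 CPM (1.40 ± 0.15, adjusted p = 1.67e-06). Nfil3, a repressor (1.76 ± 0.19), the Fos family gene Fosl2 (1.34 ± 0.10), Smad1 of the BMP pathway (1.13 ± 0.11) and Klf6 (1.09 ± 0.05) rose by over 1 on the log2 scale. Cebpa (0.96 ± 0.23), Cebpd (0.82 ± 0.13), Atf4 (0.48 ± 0.06), Rest, a repressor of neuronal genes (0.48 ± 0.07), Ddit3 (0.43 ± 0.07) and Creb3 (0.24 ± 0.06) rose by less. Fosl1 had 7 naive and 48 injured reads. Atf2, a partner of c-Jun, was the member that fell (-0.21 ± 0.05, adjusted p = 0.00361). Xbp1 (0.35 ± 0.09), Cebpb (0.71 ± 0.22), Cebpg (0.28 ± 0.06), Jund (0.40 ± 0.13) and Myc (0.29 ± 0.09) were called, but each lost its call without at least 1 of the 2 library sets (adjusted p up to 0.0788, 0.0813, 0.051, 0.33 and 0.0821). Single libraries also ended the calls of Cebpb (E3, F3 or B1), Jund (E3, F3, A1 or A3) and Myc (E1, A3 or C1). Egr1 (0.03 ± 0.22), Sox4 (-0.10 ± 0.09), Hif1a (-0.06 ± 0.07), Klf9 (0.08 ± 0.11), Creb1 (0.15 ± 0.08) and Mycn (0.13 ± 0.16) did not pass the test. Stat3 (0.29 ± 0.16) and Klf7 (0.27 ± 0.14) did not either, and both were called without A3, C1, E3 and F3, Klf7 also without E3 and with the mitochondrial covariate. Junb (0.46 ± 0.17, adjusted p = 0.0575), Klf4 (0.33 ± 0.22) and Tead1 (0.20 ± 0.08) complete the list. Junb was called with DESeq2 (adjusted p = 0.0381), limma (0.0437) and the mitochondrial covariate (0.0472) and without B1, B3, A2 or A4, and Klf4 with the covariate (adjusted p = 0.0455). Tead1 was called with DESeq2 (adjusted p = 0.0411), without A3, C1, E3 and F3 (0.00436), and without E3, F3, A1, B1 or any 1 of 7 knockout libraries.

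Immediate early genes, which overlap that list, had 12 of 28 called higher and 1 lower (median 0.33), 6 higher without A1, B1, B3, E1 and F1. Btg2, an antiproliferative factor, rose from 9.47 to 16 CPM to 17.5 to 22.8 CPM (0.83 ± 0.13). The summed level of the list was 259 to 328 CPM in naive and 658 to 804 CPM in injured libraries, of which Atf3 held 293.2 to 388.5 CPM.

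Genes of axon growth and the cytoskeleton had 30 of 45 members higher (66.7%) and 3 lower, with a median of 0.60. Gap43, a growth cone protein, stood at 148.8, 152.5, 146.9, 153.1 and 138.8 CPM in naive and 628.1, 590, 545.5 and 544.2 CPM in injured libraries (1.96 ± 0.06, adjusted p = 6.85e-15). All injured values of Gap43 lay far above its narrow naive range. Mmp16, a membrane metalloprotease (2.61 ± 0.06), Gadd45a, a growth arrest and DNA damage gene (2.46 ± 0.11), and Plaur, the urokinase receptor (2.39 ± 0.22), rose more than 4-fold. The largest gain in reads of any called gene was that of Tuba1a, at 3518 to 4595 CPM in naive and 5588 to 6904 CPM in injured libraries (0.60 ± 0.08). The β-tubulin Tubb2a went from 782 to 924 CPM to 1325 to 1697 CPM (0.80 ± 0.07). Both have near-identical copies, between which the read assignment is uncertain. The microtubule regulator Stmn2 rose from 1296 to 1574 CPM to 2542 to 2947 CPM. Rgs4, which limits G protein signals, fell (-0.31 ± 0.07, adjusted p = 0.00391). Nefl (-0.40 ± 0.14) and Nrcam (-0.26 ± 0.08) were called lower but lost the call without E3 (adjusted p = 0.131 and 0.067), F3 (0.132 and 0.0618), A1 or B1, and Nefl also without B3. Prph (0.01 ± 0.13), the neurofilament gene of small neurons, did not pass the test. With the mitochondrial share as a covariate 7 members fell, and without A1, B1, B3, E1 and F1 5 fell.

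Neuropeptide genes moved in both directions, with 11 higher and 10 lower of 31 tested (35.5% and 32.3%, against 12.6% and 12.3% of all genes). Of 42 genes in the list, 11 did not pass the filter on low counts, among them Vip (0 to 0.146 CPM), Tac2 and Pdyn. Gal, which encodes galanin, stood at 14, 12.9, 15.3, 12.7 and 11.6 CPM in naive and 1120.5, 1031.4, 1232.4 and 1053.2 CPM in injured libraries. Its coefficient of variation among injured libraries was 8.15%, against 27.2% for Nts. Nts, which encodes neurotensin, stood at 5.02 to 11.4 CPM and then at 339.3, 479.1, 243.4 and 366.5 CPM (5.59 ± 0.23, adjusted p = 2.64e-12). Npy stood at 0.0731 to 0.57 CPM in naive and 106.6 to 143.9 CPM in injured libraries.

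Adcyap1, which encodes PACAP, rose from 70 to 96.2 CPM to 249.6, 185.9, 235 and 187 CPM (1.38 ± 0.10, adjusted p = 9.32e-09). Vgf, a granule protein cut into peptides, rose from 9.33 to 31.5 CPM to 101.5, 53.6, 87.6 and 42.6 CPM (1.91 ± 0.30). Both were higher in E1 and F1 than in E3 and F3. Ucn, which encodes urocortin, had no read in any naive library and 123 reads in the injured ones, at least 54.3-fold higher. Crh had 7 naive and 867 injured reads, and Grp, an itch peptide, 5 and 149. Ucn2 (1.67 ± 0.30) rose to at most 1.3 CPM. Pomc was also low, at 0.366 to 0.624 CPM in naive and 0.935 to 1.28 CPM in injured libraries.

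Peptide genes with high naive levels were among those that fell. Calca, the CGRP alpha gene, stood at 1143.1, 1235.6, 1224, 1335 and 1174.7 CPM and then at 898.4, 1068.6, 837.9 and 922.4 CPM (-0.39 ± 0.07, adjusted p = 0.000287). Tac1, which encodes substance P, went from 215 to 277 CPM to 128 to 164 CPM. Nmb, neuromedin B, fell from 104.2 to 119.4 CPM to 69.3, 77, 67.6 and 68.3 CPM (-0.66 ± 0.06, adjusted p = 3.16e-07). Calcb (-0.50 ± 0.07), the granin gene Scg2 (-0.43 ± 0.07) and Uts2b, urotensin 2B (-1.58 ± 0.23), fell as well. Cartpt (-0.38 ± 0.09), Sst (-0.65 ± 0.14) and Penk (0.55 ± 0.14) were called but were not without A1, B1, B3, E1 and F1 (adjusted p = 0.105, 0.0672 and 0.232). Pcsk1 (-0.17 ± 0.05) and Pcsk2 (-0.38 ± 0.13), the prohormone proteases, lost their calls without E3 (adjusted p = 0.097 and 0.156) and with wild-type libraries alone (0.115 and 0.161). They also did so without B1 or B3, Pcsk1 without E1, and Pcsk2 without F3, A1 or any 1 of 6 knockout libraries. Cck, Pnoc, Nppb, Adm, Scg3, Chga, Chgb, Cpe, Pam and Nxph4 did not pass the test. With the mitochondrial covariate Chga, Chgb, Scg3, Cpe and Nxph4 were called lower (adjusted p = 6.68e-05, 0.000367, 0.000648, 0.000684 and 0.0236). Chga, Chgb and Scg3 were also called lower without A1, B1, B3, E1 and F1 (adjusted p = 0.0262, 0.0369 and 0.0116), Nppb and Nxph4 without A3, C1, E3 and F3 (0.0206 and 0.0463), Cpe without E1, and Nxph4 without C1 or E4.

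Markers of each sensory neuron class were mostly lower. Among peptidergic nociceptor markers 11 of 21 fell and 1 rose (median -0.50), among non-peptidergic and itch neuron markers 15 of 27 fell and 2 rose (-0.50), among cold and C-LTMR (low-threshold C fibre) markers 10 of 16 fell and 1 rose (-0.50), and among large fibre markers 17 of 29 fell and 3 rose (-0.47). The share called lower was thus 52.4% to 62.5%, against 12.3% of all genes, and no difference between the classes was tested. Trpm8, the cold and menthol channel, stood at 87.9, 77.5, 83, 94.7 and 55 CPM in naive and 41.4, 28, 51.3 and 35.8 CPM in injured libraries (-1.02 ± 0.17, adjusted p = 0.000142). Slc17a8, the vesicular glutamate transporter of C-LTMRs (-1.04 ± 0.16), tyrosine hydroxylase (Th, -0.85 ± 0.15) and the cadherin Cdh8 (-0.59 ± 0.10) fell in the same group.

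Of itch and non-peptidergic markers, Mrgprx1, an itch receptor (-0.95 ± 0.20), Tmem233 (-0.79 ± 0.13), Ldb2 (-0.64 ± 0.10) and the prostaglandin D2 receptor Ptgdr (-0.63 ± 0.08) fell. Of peptidergic markers Tmem45b fell from 100.1 to 160.6 CPM to 56.3 to 78.3 CPM (-0.92 ± 0.13), and Trpa1 from 85.8 to 100 CPM to 48.7 to 62.8 CPM. Scn10a, the NaV1.8 gene, was called lower (-0.70 ± 0.18), with 622.2, 328.2, 672.8 and 416.5 CPM in injured libraries against 634.4 to 998 CPM, but not with wild-type libraries alone (adjusted p = 0.0551). P2rx3 (0.16 ± 0.10), an ATP receptor of the same neurons, did not pass the test. Trpv1, the capsaicin receptor (-0.22 ± 0.14), did not either, and was called lower with the mitochondrial share as a covariate (adjusted p = 9.15e-05) and without A1, B1, B3, E1 and F1 (0.0267).

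Of large fibre markers, Scn1a, the NaV1.1 gene, stood at 253.7, 247.5, 240.7, 252.1 and 249.3 CPM in naive and 120.4, 115, 131.8 and 151.7 CPM in injured libraries (-0.94 ± 0.07, adjusted p = 6.3e-09). Etv1, a transcription factor of proprioceptors (-0.79 ± 0.10), parvalbumin (Pvalb, -0.75 ± 0.15), Cadps2 (-0.72 ± 0.08) and Ntrk3, the NT-3 receptor (-0.49 ± 0.07), fell with it. Spp1 and Maf, which macrophages also express, were called higher, and macrophage genes rose in the same libraries. What part of these rises came from macrophages was not tested. Both lost their calls without A3, C1, E3 and F3 (adjusted p = 0.0614 and 0.0639). The call of Spp1 was also lost with the replicate block (adjusted p = 0.0703), with wild-type libraries alone (0.168), without A2 and A4 (0.0565), and without E3, F1, F3, A1, B1, B3 or any 1 of 6 knockout libraries.

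Receptors of the GDNF family, which carry survival signals to sensory neurons, moved in both directions. Gfra3, the artemin receptor, rose from 38.8 to 61.4 CPM to 146.3, 113.4, 136.8 and 103.9 CPM (1.30 ± 0.12, adjusted p = 1.14e-07). Gfra1, the GDNF receptor, rose from 107.9 to 134.6 CPM to 312.7, 166, 296.6 and 191.7 CPM (1.02 ± 0.15, adjusted p = 3.72e-05), with E1 and F1 highest. Gfral, the GDF15 receptor, had 5 naive and 84 injured reads. Gfra4 fell (-0.42 ± 0.10). Over 41 neurotrophic factors and receptors 12 rose and 6 fell (29.3% and 14.6%, against 12.6% and 12.3% of all genes), with a median of 0.11. Inhbb, an activin subunit, rose from 2.29 to 3.4 CPM to 22.5, 13.8, 18.7 and 10.9 CPM (2.51 ± 0.19, adjusted p = 2.19e-08), and Clcf1, a cytokine of the CNTF family, by 1.61 ± 0.16. Vegfa (-0.32 ± 0.06) fell, and Bdnf did not pass the test (0.28 ± 0.12), though it was called higher without E3, without B1, and without A3, C1, E3 and F3. The count of falls was 3 with wild-type libraries alone and 14 with the mitochondrial covariate.

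**Figure D4:**
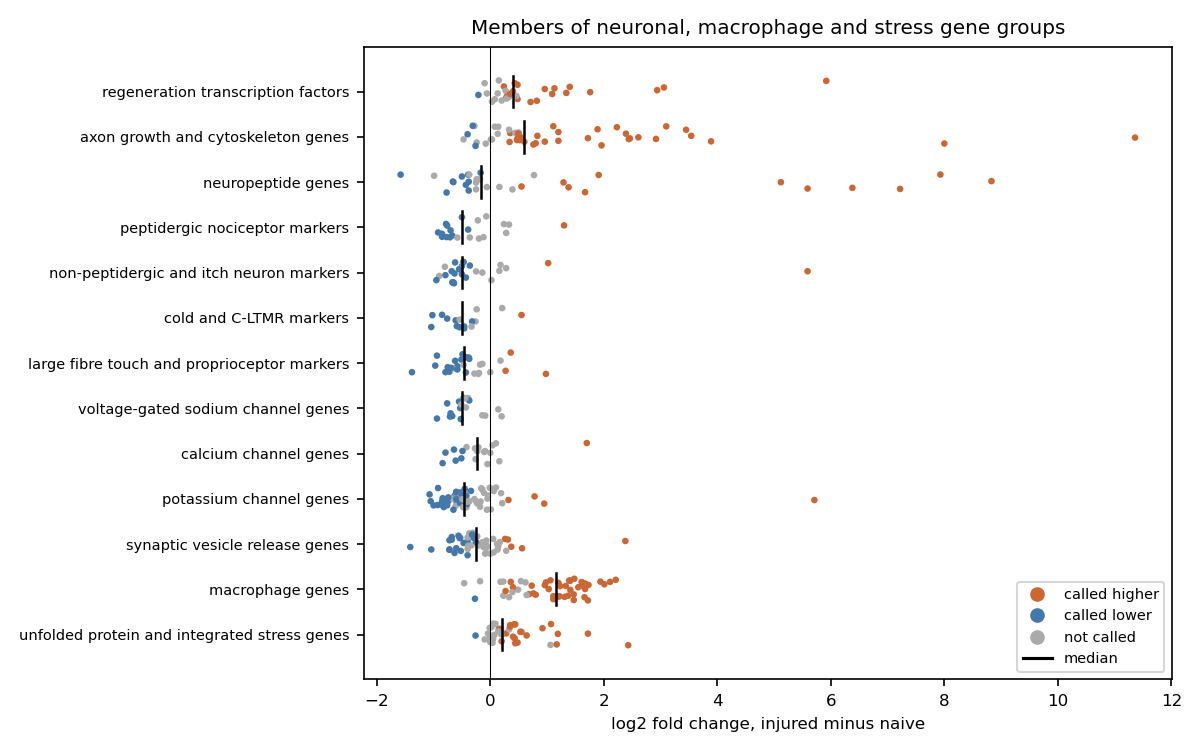
Log2 fold change after injury (horizontal axis) of every tested member of 13 gene groups (rows), orange called higher, blue called lower, grey not called, with black lines at the median. Axon growth, regeneration factor and macrophage members lie mostly to the right of 0, and neuron class markers and sodium and potassium channels mostly to the left, with Sprr1a at 11.36.

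In each of the 4 ion channel lists more genes fell than rose. Of 18 sodium channel genes, which set the threshold of firing, 10 fell (median -0.49). The leak channel Nalcn fell from 69.1 to 81.2 CPM to 42.8, 39.2, 44.6 and 48.8 CPM (-0.76 ± 0.06, adjusted p = 5.34e-08). Fgf12, which binds sodium channel tails (-0.67 ± 0.06), and Scn9a, the NaV1.7 gene (-0.52 ± 0.08), also fell. Scn3a (0.14 ± 0.09), the NaV1.3 gene, stood at 11.6 to 15.3 CPM in naive and 14.6 to 14.9 CPM in injured libraries and did not pass the test. Scn7a (-0.37 ± 0.08) was not called without A1, B1, B3, E1 and F1 (adjusted p = 0.0804).

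Of 62 potassium channel genes, which oppose firing, 30 fell and 4 rose (48.4% and 6.45%), with a median of -0.46. Kcnh7, an Erg channel, fell from 162.5 to 242.4 CPM to 86.9, 84.1, 87.2 and 102.6 CPM (-1.07 ± 0.11, adjusted p = 7.96e-07). The leak channel Kcnk9 (-1.16 ± 0.15) and the slow delayed rectifier Kcnb2 (-0.84 ± 0.07) fell. Kcnk16, another leak channel, was close to absent at 0.0712 to 0.219 CPM and rose to 9.55, 7.94, 8.29 and 7.13 CPM (5.71 ± 0.19, adjusted p = 1.12e-13), and the BK channel subunit Kcnmb4 rose by 0.78 ± 0.10. The 4 rises became 2 without E1 or without A3, and the 30 falls became 46 with the mitochondrial covariate.

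One calcium channel gene was among the 10 largest gains in reads. Cacna2d1, the α2δ-1 subunit and the target of gabapentin, stood at 299.7, 269.1, 320.9, 323.7 and 241.4 CPM in naive and 1065.9, 799.8, 1037.1 and 873.2 CPM in injured libraries (1.70 ± 0.09, adjusted p = 1.06e-10). It was the only one of 19 calcium channel genes called higher, and 6 were called lower (median -0.23), 10 with the mitochondrial covariate. Its relative Cacna2d2 fell (-0.79 ± 0.12), as did the β subunits Cacnb4 (-0.61 ± 0.08) and Cacnb2 (-0.49 ± 0.10). Cacna1b, the pore of N-type channels, did not pass the test (0.04 ± 0.09). Of 28 HCN, TRP, acid-sensing and mechanosensitive channel genes, 3 rose and 7 fell (median -0.21), 11 fell without F1 and 16 fell with the mitochondrial covariate. Ano3, an anoctamin, fell from 441 to 517 CPM to 261, 264.8, 256.1 and 307.1 CPM (-0.82 ± 0.08, adjusted p = 5.11e-07) and Trpc6 fell (-0.58 ± 0.08), while the chloride channel Ano1 rose (0.49 ± 0.10).

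Of 68 genes for purinergic, GABA, glutamate, serotonin and nicotinic receptors, 27 fell and 12 rose (39.7% and 17.6%), with a median of -0.30. GABA-A receptor subunits split. The β subunit gene Gabrb2 fell (-1.12 ± 0.08). Gabrg1, a γ subunit gene, rose from 39.1 to 52.2 CPM to 86.2, 83, 83.6 and 80.4 CPM (0.90 ± 0.06, adjusted p = 5.64e-09). Nicotinic subunits split too, with Chrna5 higher (2.79 ± 0.30) at 0.11 to 0.541 CPM in naive and 1.39 to 2.48 CPM in injured libraries. Chrnb3 was lower, with naive values spread from 10.4 to 30.3 CPM and injured ones from 6.69 to 9.35 CPM. P2ry6 (1.32 ± 0.16) and P2ry12 (0.73 ± 0.08), nucleotide receptors of macrophages and microglia, rose.

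Of 41 opioid, cannabinoid, galanin, NPY and other Gi-coupled receptor genes, 7 rose and 12 fell (median -0.20). Gpr151, an orphan receptor, stood at 0.861, 2.12, 1.75, 1.32 and 1.57 CPM in naive and 118.2, 107.6, 109.1 and 97 CPM in injured libraries (6.13 ± 0.16, adjusted p = 2.68e-15). Both cholecystokinin receptors rose. Cckbr went from 0 to 0.329 CPM to 31.2, 19.2, 23 and 12.6 CPM (7.03 ± 0.35, adjusted p = 5.35e-11), and Cckar from 15.4 to 21.5 CPM to 51.2, 35.3, 50.3 and 36.1 CPM (1.31 ± 0.12, adjusted p = 1.66e-07). Their ligand gene Cck stayed at or under 0.559 CPM in all 9 libraries and did not pass the test. The melanocortin receptor Mc4r rose at a low level (2.23 ± 0.26). Oprm1, the mu opioid receptor, fell from 12 to 16.1 CPM to 5.87, 7.42, 7.36 and 11 CPM (-0.85 ± 0.15, adjusted p = 0.000379), and Oprl1, the nociceptin receptor, from 20.8 to 31.3 CPM to 10.3 to 13.3 CPM. The protease-activated receptor F2rl2 fell (-0.60 ± 0.06). The galanin receptors Galr1 (-0.63 ± 0.33) and Galr2 (-0.64 ± 0.38) did not pass the test.

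Genes of synaptic vesicle release had 19 of 49 members lower and 5 higher (median -0.25). Their summed level was 6788 and 7037 CPM in E3 and F3 and 9670 and 9487 CPM in E1 and F1, against 7801 to 10676 CPM in naive libraries. Snap25, a SNARE protein, stood at 903.3 to 1061.5 CPM and then at 774.8, 599.5, 750.3 and 597.1 CPM. The vesicle protein Sv2b (-0.72 ± 0.09), the active zone scaffold Pclo (-0.56 ± 0.07) and Syt10 (-1.41 ± 0.26) fell. Doc2b, a calcium sensor, rose from 0.375 to 0.794 CPM to 2.52 to 3.93 CPM (2.38 ± 0.23), and Syt4 (0.56 ± 0.06) and Stx1a (0.31 ± 0.08) rose by less. The count of rises was 3 with wild-type libraries alone, and that of falls was 32 with the mitochondrial covariate.

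Axon guidance genes had 12 members higher and 16 lower of 77 (15.6% and 20.8%, against 12.6% and 12.3% of all genes), with a median of -0.04. Sema6a, a transmembrane semaphorin, rose from 9.28 to 11.7 CPM to 114.8, 68.7, 96.7 and 63.4 CPM (3.10 ± 0.14, adjusted p = 1.63e-11). Flrt3, an adhesion partner of Unc5 and latrophilin receptors, stood at 15.6 to 17.7 CPM and then at 184.5 to 204.4 CPM. The ephrin receptor Epha3 (1.00 ± 0.11) and Sema3c (0.59 ± 0.06) rose, while Sema3e (-0.77 ± 0.12), the netrin receptor Unc5b (-0.76 ± 0.17), Ntng1 (-0.67 ± 0.10) and Epha6 (-0.62 ± 0.12) fell. The count of falls was 10 without E3, 8 with wild-type libraries alone and 25 with the mitochondrial covariate.

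Macrophage genes were the group with the largest share called higher of the 44 lists, 38 of 50 (76.0%), with 1 lower and a median of 1.15. Fcrls, a marker of microglia and resident macrophages, stood at 18.7, 18.9, 12, 12.4 and 18.5 CPM in naive and 40.8, 77.1, 61.7 and 79.2 CPM in injured libraries (2.01 ± 0.19, adjusted p = 3.7e-07). C1qb, a chain of complement C1q, went from 17 to 34.5 CPM to 56.3, 98.6, 68.8 and 87.5 CPM (1.67 ± 0.21). Ms4a6d (2.21 ± 0.25), the Fc receptor Fcgr1 (1.72 ± 0.23) and Lgals3, galectin 3 (1.48 ± 0.09), rose. Csf1, which keeps macrophages alive, rose from 9.58 to 12.4 CPM to 116.9, 75.2, 99.4 and 67.9 CPM (2.98 ± 0.13, adjusted p = 1.16e-11). Csf1 was higher in E1 and F1, while C1qb was higher in E3 and F3.

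Chemokine and cytokine genes had 18 of 43 higher and 1 lower (median 0.55). Ccl8 rose from 0.11 to 2.5 CPM to 10.8 to 18.5 CPM (3.92 ± 0.57), and Il6 from 0.219 to 0.427 CPM to 0.988 to 1.3 CPM (2.0 ± 0.22, adjusted p = 1.28e-06). Cxcl9 did not pass the test and stood at 7.45 CPM in naive A3 and at 0.414 to 2.11 CPM in the 8 others. Cytokine receptor and JAK-STAT genes had 28 of 57 higher and 2 lower (median 0.34), 6 lower with the mitochondrial covariate. Il1r1, the interleukin 1 receptor, stood at 13.8 to 14.8 CPM and then at 34.9, 38.6, 37.2 and 36.3 CPM (1.37 ± 0.07, adjusted p = 1.12e-10). Tnfrsf12a, the TWEAK receptor (1.91 ± 0.12), Il13ra1 (1.42 ± 0.09) and Stat5a (1.15 ± 0.09) rose and Socs5 (-0.29 ± 0.07) fell.

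Complement genes had 14 of 28 higher and 1 lower (median 0.58). C4b (1.17 ± 0.09), which has a near-identical copy, and the C3a receptor C3ar1 (1.52 ± 0.17) rose. The complement regulators split, with Cd59a higher (0.51 ± 0.05) and Cd55 lower, from 449.2 to 553 CPM to 341.1, 312.4, 315.3 and 328 CPM (-0.63 ± 0.07, adjusted p = 3.57e-06). Fc and lectin receptor genes had 18 of 32 higher (median 0.81), among them Clec4n (2.03 ± 0.30), Clec10a (1.70 ± 0.25), Clec4a3 (1.45 ± 0.22) and the sialic acid receptor Siglec1 (1.31 ± 0.19).

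Other immune groups had smaller shares called higher than those above, and 12.6% of all genes were called higher. Of 27 antigen presentation genes 1 was called higher, the protease Ctss, from 14.4 to 36.9 CPM to 60.8, 93.2, 67.6 and 90 CPM (1.65 ± 0.23), and 9 were with the mitochondrial covariate. B2m (0.20 ± 0.25) and H2-K1 (0.16 ± 0.19), subunits of class I molecules, did not pass the test. Interferon response genes had 14 of 48 higher and 1 lower (median 0.28), but 4 higher without A1, B1, B3, E1 and F1. Oas2 (1.46 ± 0.26) and Mx2 (0.62 ± 0.11) rose, Cmpk2 fell (-0.50 ± 0.09), and Isg15 (0.46 ± 0.25) did not pass the test. Of neutrophil genes 1 of 15 rose (6.67%), Ly6g (1.73 ± 0.40). S100a8, an abundant neutrophil gene, stood at 18 to 102.9 CPM in naive libraries, highest in C1, and at 11.9 to 78.5 CPM in injured ones. Of T and NK cell genes 1 of 15 rose (6.67%), Cd4 (1.26 ± 0.27), and of B cell genes 1 of 12 (8.33%), Blnk (1.13 ± 0.24). Of 19 mast cell and dendritic cell genes 3 rose (15.8%), among them Hdc, the histamine-forming enzyme (1.76 ± 0.30), and Zbtb46 (0.94 ± 0.08), with 5 without E1 and 6 with the mitochondrial covariate.

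Satellite glia, which wrap the neuron bodies, had 5 of 28 genes higher and 3 lower (17.9% and 10.7%, against 12.6% and 12.3% of all genes), and a median of 0.04. Gfap, an intermediate filament of reactive glia, stood at 12.3, 10.1, 7.13, 5.47 and 6.77 CPM in naive and 17, 25.9, 20.9 and 15.9 CPM in injured libraries (1.26 ± 0.18, adjusted p = 4e-05). Aldh1l1 (1.14 ± 0.12), glutamine synthetase (Glul, 0.53 ± 0.06) and vimentin (Vim, 0.40 ± 0.06) rose and S100b fell (-0.31 ± 0.06). Fabp7 (-0.20 ± 0.19), a defining satellite glia gene, and Sox10 (0.11 ± 0.12) did not pass the test. Schwann cell and myelin genes had 5 of 30 higher and 3 lower (median -0.01), 2 higher with wild-type libraries alone, and 5 lower with the replicate block or the mitochondrial covariate. The 5 included Jun and Gap43, which neurons express too. The myelin gene Mbp (-0.14 ± 0.10) did not pass the test.

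Of 42 unfolded protein and integrated stress genes 20 rose (47.6%, against 12.6% of all genes), 1 fell and 21 did not pass the test, with a median of 0.21. Chac1, which degrades glutathione, stood at 2.19, 2, 3.11, 3.62 and 1.89 CPM in naive and 14.6, 14.5, 14.7 and 11.4 CPM in injured libraries (2.43 ± 0.17, adjusted p = 3.27e-09). Asns, asparagine synthetase, went from 148.1 to 162.3 CPM to 216.2, 209.4, 203.7 and 205.8 CPM (0.42 ± 0.04, adjusted p = 7.09e-07). Both groups were tight for Asns, so that a change this small did not overlap. Cth, of cysteine synthesis (1.72 ± 0.18), and Mthfd2, of mitochondrial folate metabolism (1.07 ± 0.08), rose. Hspa5, the ER chaperone BiP, did not pass the test (0.07 ± 0.09). Among 22 ER calcium and associated receptor genes 3 rose and 1 fell (13.6% and 4.55%, against 12.6% and 12.3% of all genes). The inositol trisphosphate receptor Itpr1 was higher (0.89 ± 0.07, adjusted p = 1.21e-08). The count was 5 higher without A3, C1, E3 and F3, and 5 higher and 4 lower with the mitochondrial covariate.

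Cell death and DNA damage response genes had 15 of 39 higher and 5 lower (median 0.24). Cdkn1a, the p21 gene, rose from 43.6 to 48.6 CPM to 140.8, 122.7, 128.9 and 99.8 CPM (1.41 ± 0.10), and the JNK3 gene Mapk10 fell (-0.46 ± 0.10). The 5 falls became 2 without E3 or B3, 3 without A1, B1, F3 or any 1 of 6 knockout libraries, and 1 with wild-type libraries alone. They were 2 without A3, C1, E3 and F3, 3 without a filter and 11 with the mitochondrial covariate. Amine and polyamine genes had 8 of 29 higher and 4 lower (27.6% and 13.8%, against 12.6% and 12.3% of all genes), with a median of 0.11. The polyamine enzyme Odc1 (0.83 ± 0.07), the antizyme inhibitor Azin1 (0.40 ± 0.05) and arginase 2 (Arg2, 0.79 ± 0.12) rose, and Dbh had 2 naive and 39 injured reads. The 4 falls became 1 without either library set, and 2 without F1 or F3, without a filter or with wild-type libraries alone.

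**Figure D5:**
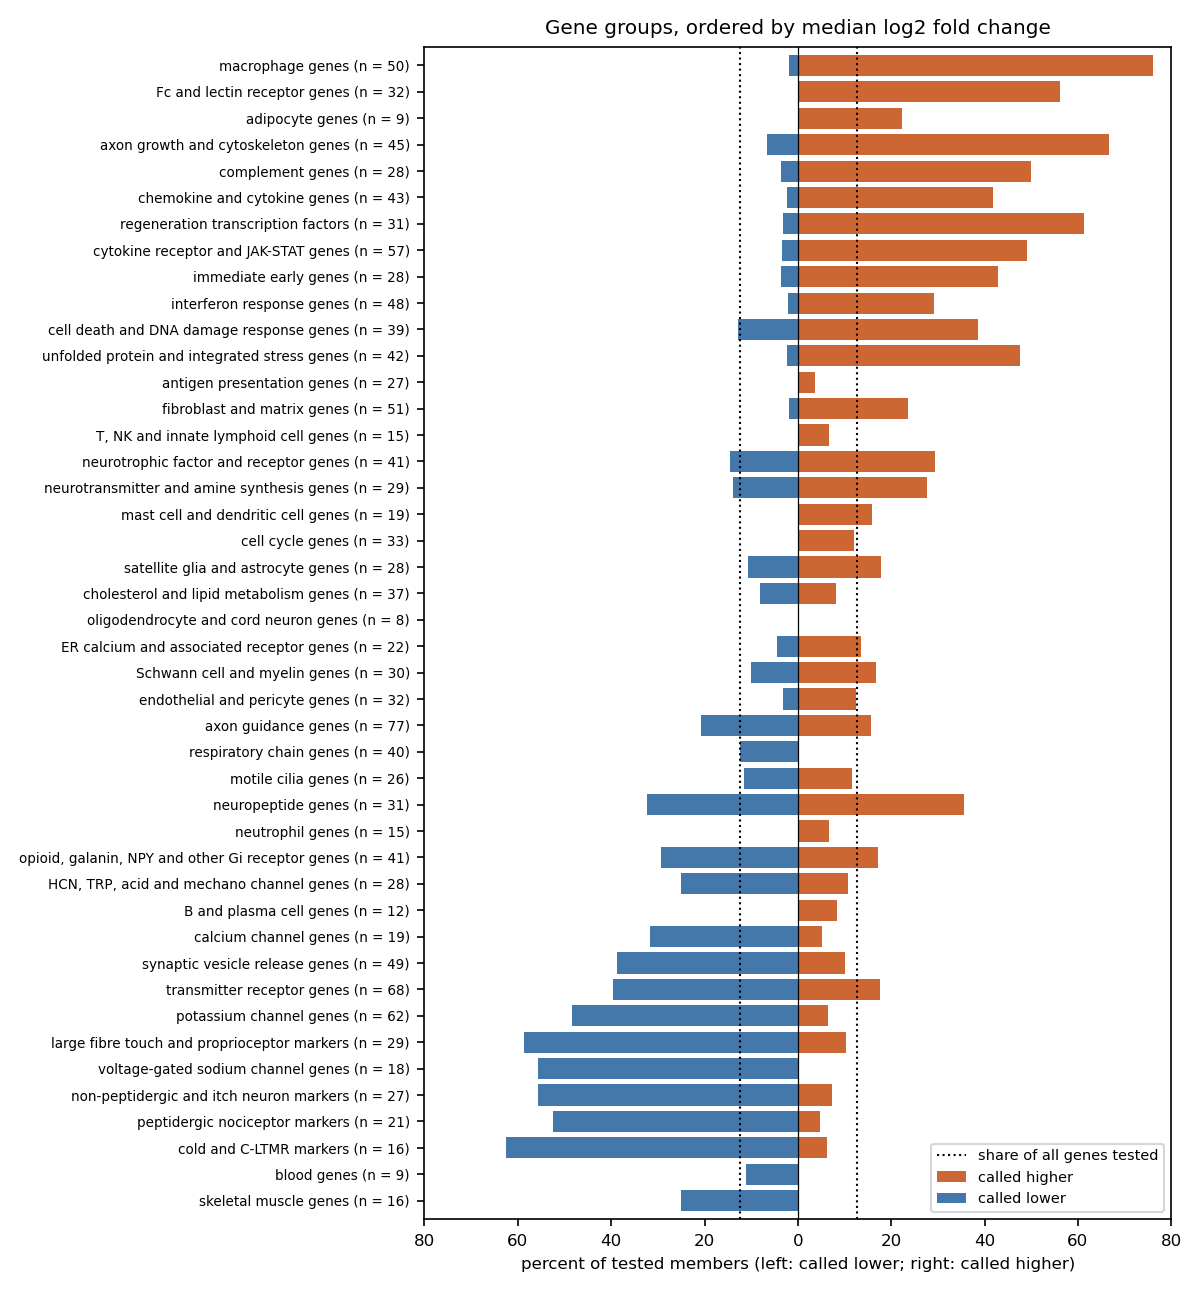
Percent of tested members called higher (right, orange) and called lower (left, blue) in 44 gene groups, ordered by median log2 fold change, with dotted lines at the shares of all genes tested, 12.6% and 12.3%. Macrophage, axon growth and regeneration factor groups extend farthest right, and cold and C-LTMR and large fibre markers farthest left.

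Groups of other tissues and functions are set here against the 12.6% of all genes called higher and 12.3% called lower. Fibroblast and matrix genes had 12 of 51 higher (23.5%) and 1 lower (6 higher with wild-type libraries alone, 20 with the mitochondrial covariate), among them the collagen cross-linking enzyme Loxl2 (1.49 ± 0.11), Mmp19 (0.78 ± 0.15) and Postn (0.36 ± 0.07), while Col1a1 did not pass the test (0.07 ± 0.18). Endothelial genes had 4 of 32 higher (12.5%) and 1 lower, among them the glucose transporter Slc2a1 (0.79 ± 0.07), the chemokine scavenger Ackr1 (0.54 ± 0.12) and Abcg2 (0.26 ± 0.05), while Pecam1 did not pass the test (-0.11 ± 0.11). Of 37 cholesterol and lipid genes 3 rose (8.11%), among them the cholesterol exporter Abca1 (1.58 ± 0.09), and 3 fell, among them Elovl6 (-0.45 ± 0.09) and Stard4 (-0.33 ± 0.06). The 3 rises became 6 without E1, 5 without F3 or with DESeq2, 8 without A3, C1, E3 and F3 and 7 with the mitochondrial covariate, which also gave 8 falls. Of 40 respiratory chain genes 5 fell (12.5%), among them Ndufs1 (-0.24 ± 0.05). Leaving out any 1 of the 9 wild-type libraries moved this count, to 9 without E3, 1 without B3 and 2 or 3 for the rest, and any 1 of 7 knockout libraries moved it to 2. It was 1 with wild-type libraries alone or without a filter, 2 without A2 and A4, 11 without A3, C1, E3 and F3 and 10 with the mitochondrial covariate. Of 33 cell cycle genes 4 rose (12.1%), 2 without A3, B1 or F3, 7 without C1, 1 with wild-type libraries alone, 2 without A1, B1, B3, E1 and F1 and 8 with the mitochondrial covariate, and Mki67 did not pass the test (-0.24 ± 0.34). Of 26 motile cilia genes 3 rose (11.5%), among them Dnah5 (1.62 ± 0.26), and 3 fell, among them Dnah6 (-1.83 ± 0.20, adjusted p = 1.56e-06). Of 9 blood genes the platelet gene Ppbp fell (-1.98 ± 0.45), with 7.66 CPM in naive C1 and 1.59 to 3.04 CPM in the other naive libraries, and Hba-a1 did not pass the test (-0.86 ± 0.45). Of 9 adipocyte genes 2 rose (22.2%), with a summed level of 175.6 CPM in F1 and 60.3 to 61.3 CPM in the other injured libraries. Skeletal muscle genes were lower in all 16 members by sign (median -2.17), with 4 called (25%), Acta1, Myh1, Mylpf and the Pvalb gene of large fibre neurons given above. The count was 1 without B1 or E3, 2 without A3, F1 or F3, 7 without A1, 8 without E1 or with the replicate block, and 10 without C1 or with DESeq2. It was also 1 with limma, without a filter, with wild-type libraries alone and without either library set. Without Pvalb the sum of the other 15 genes was 16.2, 114.8, 78.8, 27.1 and 11.9 CPM in naive and 24.7, 10.3, 12.6 and 15.3 CPM in injured libraries, so that A3 and B1 were high and the groups overlapped.

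Among genes with the largest losses in reads, Dgkh, a diacylglycerol kinase, fell from 1308.5 to 1531.2 CPM to 744.4, 683.3, 765.5 and 887.7 CPM (-0.89 ± 0.08, adjusted p = 1.69e-07), and Ttll7, a tubulin polyglutamylase, from 1622 to 1793 CPM to 955 to 1178 CPM (-0.64 ± 0.07). The 20 largest falls in fold were also taken without overlap and above the floor on mean level. Larger falls with overlap, such as Myh1, are thus not among them. Dnah6, given above (-1.83), was among the 20. The adhesion genes Cntn4 (-1.13 ± 0.09) and Pcdh11x (-1.20 ± 0.12), Vwc2l (-1.15 ± 0.07) and the carboxypeptidase Cpb1 (-1.19 ± 0.13) are some of the 20 not described above. Vwde (-1.12 ± 0.19) and Lrguk (-1.12 ± 0.11) are others. Vwc2l stood at 22.9 to 24.8 CPM in naive and 9.99 to 12.2 CPM in injured libraries. Of these 20, Gm42811, Gm37711, Gm10754 and AC107792.3 have no gene symbol of known function and are passed over.

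The injury response of wild-type DRG was set beside that of knockout DRG (4 injured and 5 naive libraries), and the difference was tested as an interaction. It was called for 5 of 19496 genes (0.0256%), with 1160 at an unadjusted p under 0.05 and 24 called by DESeq2. Gal rose by 6.38 ± 0.09 in wild type and 7.43 ± 0.10 in knockout DRG (difference 1.05 ± 0.11, adjusted p = 0.000549). Flrt3 rose by 3.54 ± 0.05 and 3.96 ± 0.05 (difference 0.43 ± 0.07, adjusted p = 0.0255). Cyp4b1, a cytochrome P450, rose by 2.71 ± 0.13 and 4.03 ± 0.13 (difference 1.33 ± 0.19, adjusted p = 0.0128). C130060K24Rik went from 1.12 ± 0.399 to 1.32 ± 0.17 CPM in wild type, where it was not called, and by 3.69 ± 0.41 in the knockout (difference 3.46 ± 0.50, adjusted p = 0.0128). 9430062P05Rik rose in wild type (1.38 ± 0.16) and was not called in the knockout (-0.12 ± 0.18, difference -1.50 ± 0.24, adjusted p = 0.0279). Naive libraries A2 and A4 count here as knockout by their genotype field, although their titles say wild type, and without both, 2 genes were called. Leaving out 1 library at a time gave 1 to 7 calls, with 3 or fewer without any 1 of the 4 injured knockout libraries, or without A2, A4 or A3. The genotypes were not balanced for the library sets. Mitochondrial shares were 3.71% to 4.36% in knockout and 3.65% to 6.12% in wild-type DRG libraries, so only wild-type libraries lay above 5%.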

How the data were processed

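Per the labels' protocols, 1 µg of RNA per sample went into stranded mRNA libraries (TruSeq). The submitters' processing notes name FastQC 0.11.5, HISAT2, RSEM and build GRCm38. The annotation is not given in the sources used here. Expected counts for 55487 genes stand in the authors' raw table and were rounded. In this deposited table, column E1 (unit other) had 9150 cells with decimal commas and 1 broken cell, restored to 1780.86 from the normalised table. The normalised table of the authors holds signal values, the raw column times 1 factor, and was used for an alternative.

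All 18 DRG libraries in 4 groups were fitted with edgeR 4.0.16 in R 4.3.3 (TMM, filterByExpr, robust quasi-likelihood F test, 14 residual degrees of freedom), with Benjamini-Hochberg adjustment over 19496 genes. A2 and A4 followed their genotype field. Alternatives were DESeq2 1.42.0, limma 3.58.1, RLE scaling, no filter, wild-type libraries only, no A2 and A4, and each library left out. Chosen after seeing the data were the mitochondrial share as a covariate, leaving out either library set, and a replicate block. The block used the numbers in the column names. Same-numbered wild-type libraries deviated together (correlations 0.151, 0.603, 0.573 and 0.518). The labels do not say what the numbers mark, and each same-numbered pair lay within 1 library set. Other pairs within a set reached 0.702 (F3 and C1), and pairs across sets lay between -0.729 and -0.069, so that a shared number cannot be told apart from a shared set.

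The members and the 44 lists were chosen with earlier results of these data known. Named were the 20 largest rises and falls without overlap, the 10 largest gains and losses in CPM, up to 4 called members per direction and the extremes of each list, all members of some lists, and members that were not called. The 20 rises and 20 falls were taken among called genes above a floor on mean level. The floor was a mean of at least 1 over both groups, on the log2 scale of CPM plus an offset. Tested on simulated data, the fit recovered 98% of 200 genes changed by 1 and 100% of 200 changed by 2 on the log2 scale, with 13 false calls among 19496 genes. The simulation changed far fewer genes than the 4864 called here, so its false calls give no error rate for those calls. Depth was 22.34 to 27.27 M estimated reads per wild-type DRG library. Some genes, the deleted one among them, are not reported here. Overlapping and antisense genes were not examined for shared reads.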

Additional observations from a re-analysis of the deposited data

Results flagged for a closer look

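Among the 252 genes printed in the text and 8 summed groups, 32 of 520 sets of libraries had 1 library set apart from the rest of its group (Dixon's test at 95%). Chance alone gives about 1 in 20 such sets. Naive C1 was the library set apart for S100a8 (102.9 CPM, the others 18 to 39.3), Ly6g (3.13, 0.441 to 1.17), the summed neutrophil genes (544.8, 106.1 to 213.3), Ppbp (7.66, 1.59 to 3.04), Fabp7 (910.8, 524.7 to 630.9), Btg2 (16, 9.47 to 11.2), Klf4 (7.34, 3.58 to 4.63), Slc6a4 (2.21, 0.473 to 0.883), Stard4 (113.2, 100 to 102.4) and Pclo (203.6, 218.3 to 222.4). Naive A3 was apart for Cxcl9 (7.45 CPM, 0.512 to 1.39), Ccl8 (2.5, 0.11 to 0.784) and Clec4n (3.2, 1.15 to 1.57). Naive B1 was apart for Abcg2 (101.9 CPM, 111 to 113.3), Trpc6 (15, 18.4 to 19.4) and Dnah5 (0.475, 0.309 to 0.344), and B3 for 9430062P05Rik (1.5, 1.9 to 2).

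Injured F3 was apart for Chac1 (11.4 CPM, 14.5 to 14.7), Nfil3 (9.02, 12.5 to 13), Ano3 (307.1, 256.1 to 264.8), Kcnh7 (102.6, 84.1 to 87.2), Gabrb2 (7.99, 7.03 to 7.11), Epha6 (7.99, 5.38 to 5.82) and Cartpt (13, 13.8 to 13.9). Injured E3 was apart for Vim (1004.5 CPM, 868 to 885.9), Maf (79.9, 68.1 to 69.6), P2ry6 (10.8, 7.86 to 8.29) and Cntn4 (13.5, 18.5 to 19.3). Injured F1 was apart for the summed adipocyte genes (175.6 CPM, 60.3 to 61.3) and Gm10754 (1.79, 2.32 to 2.34), and E1 for Tmem233 (203.4, 163.2 to 169.1) and Acta1 (2.32, 0.478 to 0.73).

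The injury response differed between genotypes in 5 genes by the interaction test, with differences (knockout minus wild type, log2) of 1.05 for Gal, 1.33 for Cyp4b1, 3.46 for C130060K24Rik, 0.43 for Flrt3 and -1.50 for 9430062P05Rik.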

How the results depend on the processing

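The count of 4864 called genes in wild-type DRG was 3216 with wild-type libraries alone and 7031 with the mitochondrial share as a covariate, the latter chosen after seeing the data. It was 5156 with DESeq2, 4860 with RLE scaling, 4863 with limma, 4205 without a filter, 4666 without A2 and A4, and 4349 to 5061 with 1 library left out. Without A3, C1, E3 and F3 the count was 4843, of which 3812 were among the 4864. Without A1, B1, B3, E1 and F1 it was 3578, of which 2961 were. The 5 interaction calls became 24 with DESeq2, 12 with the covariate, 42 without A1, B1, B3, E1 and F1, 2 without A2 and A4, and 1 to 7 with 1 library left out. The replicate block gave 4962 genes, moved the falls among Schwann cell genes from 3 to 5 and among muscle genes from 4 to 8, and moved no other list count by over 1.5 times. Of the 376 genes that the naming rules selected, more than are printed, the block ended 3 calls and made 4, and wild-type libraries alone ended 41 of 370. The number of libraries limits most values, and read depth those under about 1 CPM.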
